A study of Mus musculus with 8 samples.

Results

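The genes described here are 6 genes of Schwann cells and their myelin, Mbp, Pmp22, Prx, Egr2, Ngfr and Ncam1, taken at every probe that the annotation of the bead array gives one of these symbols. They are 6 of 16593 genes named in that annotation and hold 9 of the 25697 probes on the array, namely 3 for Mbp, 2 each for Pmp22 and Ncam1, and 1 each for Egr2 and Ngfr. No probe among those analysed carries the symbol Prx, so that periaxin has no value here. All 9 probes were among the 15120 probes tested, since each was detected above the negative control beads on at least 4 of the 8 arrays.

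Whole skin was excised from the back of C57BL6 mice at 10 wk of age, and the RNA of each mouse went onto an array of its own. The control group consisted of 4 mice labelled wild type that carry MED1 fl/fl, and the KO group of 4 mice with MED1 fl/fl and Cre driven by the keratin 14 (K14) promoter. Both groups thus carry the floxed alleles, and the Cre line acts in K14 expressing keratinocytes, whereas Schwann cells, nerves, dermis and muscle in the same skin are not its target. The study describes control skin of this age as resting (telogen) and KO skin as shifted to anagen, the growth phase of the hair follicle, so that genotype and hair cycle phase cannot be told apart.

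Schwann cells wrap the axons of peripheral nerves. A myelinating Schwann cell wraps a single axon and compacts its membrane with a small set of structural proteins, while nonmyelinating Schwann cells hold thin sensory and sympathetic axons, which make up much of the innervation of skin. The transcription factor Egr2, also called Krox20, turns on the myelin genes when a Schwann cell begins to myelinate, and Ngfr and Ncam1 are typical of immature, repairing and nonmyelinating Schwann cells. None of these genes is restricted to Schwann cells: Egr2 is also known from hair follicle keratinocytes and immune cells, Ngfr from hair follicles, Ncam1 from muscle and dermal papilla, and Pmp22 from fibroblasts.

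The arrays detected 14593 to 15149 probes each, with median raw signals of 152.2 to 193.6. Arrays of the same genotype correlated across probes with r of 0.991 to 0.993 and arrays of different genotype with r of 0.908 to 0.916. The skin markers Krt14 and Col1a1 were bright in every mouse, with log2 signals of 15.05 or above and 13.99 or above. Med1 itself was lower in KO skin at its brightest probe (ILMN_1220563), with log2 signals of 8.92 to 9.10 in control mice, against 7.80 to 8.45 in KO mice (change -0.79 ± 0.14, adjusted p = 0.000649). A dimmer Med1 probe (ILMN_3106388) was also called lower (-0.69, adjusted p = 0.00861). Another (ILMN_2658227) was not called (-0.23, adjusted p = 0.252), and ILMN_2695175 was not detected on any array. Of the defining Schwann cell markers, Sox10 was not analysed here and S100b was not above background on any array, so these markers give no check of the cell type here.

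The start regions of 3 genes are printed here because Egr2 was the only gene of the group whose signal was higher in KO skin, and Pmp22 and Ngfr were lower. Each is 300 bases long, from 250 bases before to 50 bases after an annotated transcription start (RefSeq, assembly GRCm38.p6). Capitals mark a CArG box (CC, 6 bases that are A or T, then GG, the site type of serum response factor) in Egr2 at chr10:67537619-67537918, plus strand, and GC boxes (GGGCGG, the site type of Sp1) on either strand in Pmp22 at chr11:63128732-63129031 and chr11:63131207-63131506, plus strand, and in Ngfr at chr11:95587649-95587948, minus strand. The upstream Pmp22 region holds no GC box and has no capitals.
Egr2: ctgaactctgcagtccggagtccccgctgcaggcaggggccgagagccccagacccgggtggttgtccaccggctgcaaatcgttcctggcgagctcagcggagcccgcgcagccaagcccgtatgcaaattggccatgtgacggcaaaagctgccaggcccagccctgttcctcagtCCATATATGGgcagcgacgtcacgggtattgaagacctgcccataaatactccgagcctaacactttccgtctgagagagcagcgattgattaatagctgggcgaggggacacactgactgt
Pmp22 upstream start: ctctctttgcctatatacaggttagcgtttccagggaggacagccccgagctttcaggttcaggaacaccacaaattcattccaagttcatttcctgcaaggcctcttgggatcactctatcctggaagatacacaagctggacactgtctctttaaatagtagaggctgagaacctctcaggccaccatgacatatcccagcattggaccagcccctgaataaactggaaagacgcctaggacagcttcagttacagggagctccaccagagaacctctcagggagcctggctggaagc
Pmp22 downstream start: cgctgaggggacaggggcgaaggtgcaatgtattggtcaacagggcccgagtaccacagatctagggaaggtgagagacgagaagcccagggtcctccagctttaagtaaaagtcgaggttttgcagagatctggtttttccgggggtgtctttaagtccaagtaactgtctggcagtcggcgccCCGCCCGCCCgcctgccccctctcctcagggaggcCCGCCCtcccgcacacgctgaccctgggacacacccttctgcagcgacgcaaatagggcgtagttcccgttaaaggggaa
Ngfr: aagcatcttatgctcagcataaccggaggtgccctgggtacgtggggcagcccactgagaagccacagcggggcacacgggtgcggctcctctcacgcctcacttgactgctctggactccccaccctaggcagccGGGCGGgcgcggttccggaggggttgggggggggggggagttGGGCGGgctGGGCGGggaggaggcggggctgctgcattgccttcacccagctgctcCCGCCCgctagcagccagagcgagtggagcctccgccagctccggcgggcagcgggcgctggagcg

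A CArG box stood in 4 of the 5 start regions listed for Egr2, 3 of which overlap and share the box printed here, and in 0 of those for Pmp22, Ngfr and Prx. Such a box is present in 1.63% of all 32851 start regions listed. GC boxes were counted 3 times in the downstream Pmp22 region, where 2 of them overlap, and 4 times in that of Ngfr. Of the other regions listed, a Pmp22 region at chr11:63132553-63132852 held 3, Egr2 regions at chr10:67535249-67535548 and chr10:67537316-67537615 held 4 and 1, and the rest held 0, so that higher and lower genes alike have regions with and without one. They are common, since 35.7% of all start regions hold at least 1. The binding site of the Egr factors, searched as GCGTGGGCG or GCGGGGGCG on both strands, was found in 3.47% of all start regions and in 0 of the 11 regions listed for Prx, Egr2, Pmp22 and Ngfr. These letter matches are a description of the sequence, and the arrays give no data on binding.

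Among the 9 probes, 7 were lower in KO skin, 1 was higher and 1 was not called (limma, Benjamini-Hochberg adjusted over all tested probes). Over all tested probes, 32.0% were called lower and 30.7% higher, so a call in either direction was common in this comparison (62.7%). The fold is less common, since 9.03% of tested probes were called and at least 2-fold lower, as 6 of the 9 probes were. At their brightest probes 4 of the 5 measured genes were lower, with a median log2 change of -1.41, beside a median of -0.04 over all 10350 tested genes. Because this is whole skin, fewer cells of a type and less RNA per cell cannot be told apart.

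Mbp, myelin basic protein, holds the inner faces of the myelin membrane together. Its brightest probe (ILMN_2737200, Mbp a) gave log2 signals of 11.78, 11.92, 11.84 and 11.81 in control mice 1 to 4 and 10.19, 10.06, 10.05 and 10.05 in KO mice 1 to 4. The control values lay within 0.14 of each other, and the lowest of them was 1.59 above the highest KO value. The signal in KO skin was 29.7% of that in control skin (change -1.75 ± 0.07, SE of the fit, adjusted p = 3.46e-08), and 2.19% of all tested probes had a lower change.

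Both other Mbp probes were dimmer and gave the same direction without overlap between the genotypes. Such separation was common, since all KO values lay below all control values for 29.5% of tested probes. Mbp b (ILMN_3011353) had log2 signals of 9.40, 9.003, 9.43 and 9.74 in control mice, against 8.04, 8.23, 8.06 and 7.76 in KO mice, a change of -1.37 ± 0.16 (adjusted p = 4.25e-05). Mbp c (ILMN_3081854) had 7.36, 7.57, 8.0003 and 7.93 in control mice, against 6.21, 6.04, 6.20 and 6.10 in KO mice, a change of -1.58 ± 0.14 (adjusted p = 7.29e-06). Its change shrank to -0.80 without background correction. The spread of control mice was wider at both of these probes (SD 0.30 each) than at Mbp a (SD 0.06). The gene lies on chromosome 18 (82475091 to 82585637), and which of its transcripts each probe reads was not analysed here.

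**Figure D1:**
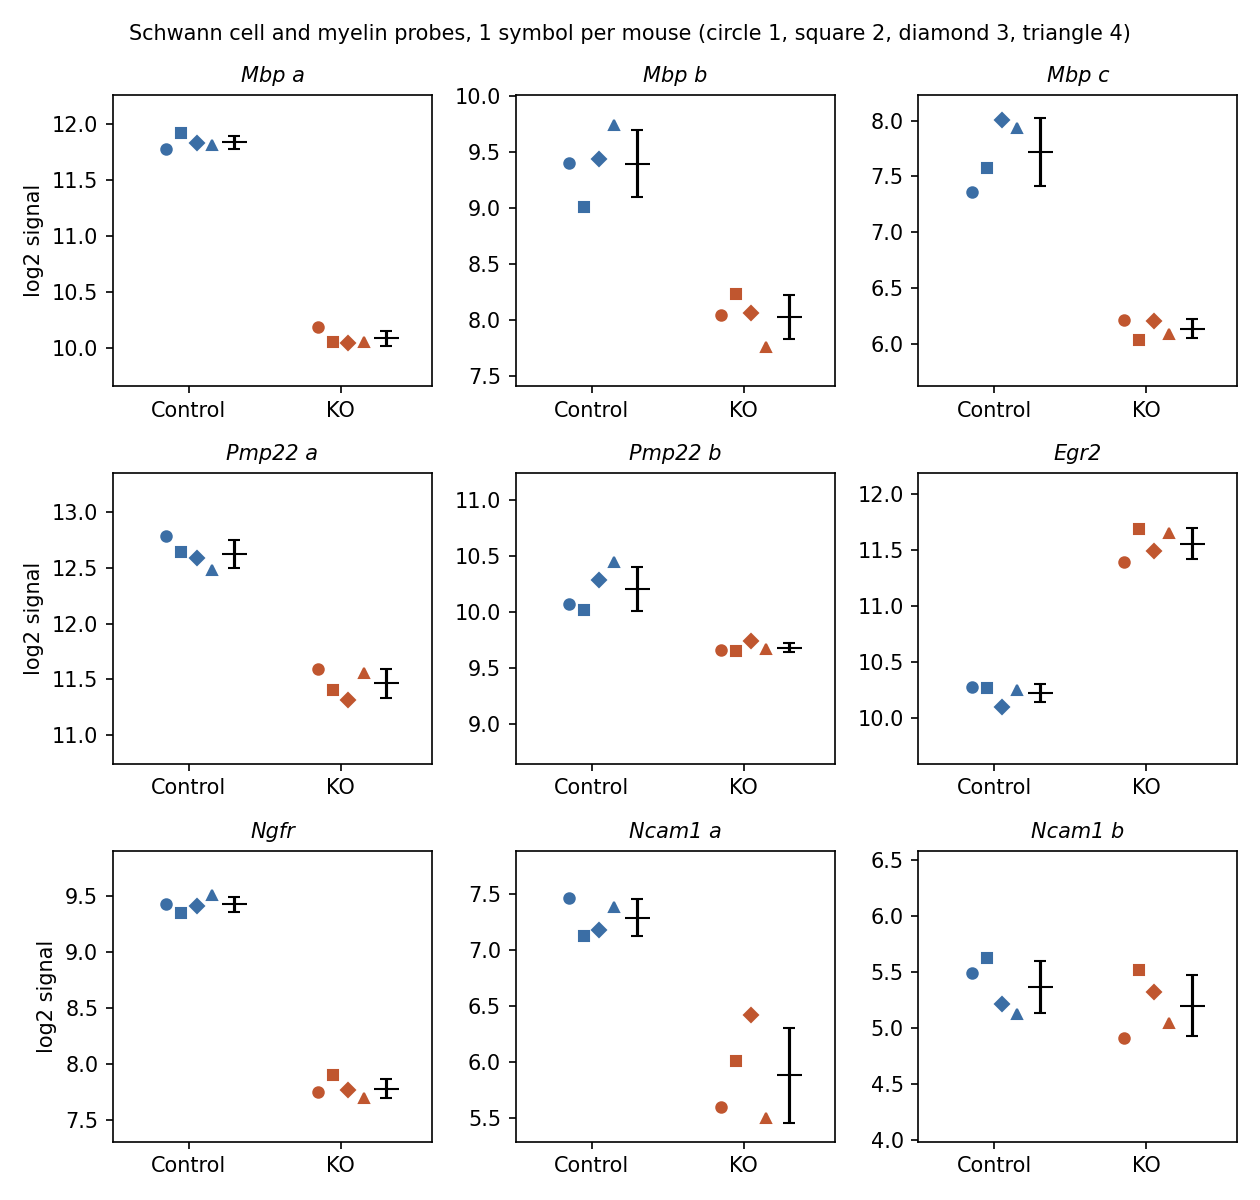
Log2 signal (neqc, y axis, a separate range per panel) of each of the 9 probes in control (blue) and KO (orange) mice, with 1 symbol per mouse and, beside each group, the mean with the SD over 4 mice; probes of a gene are lettered from the brightest. The 2 groups are separate in every panel but Ncam1 b, and KO lies above control only for Egr2 (11.39 to 11.69 against 10.10 to 10.27). Over all tested probes, all KO values lay below all control values for 29.5% and above them for 28.5%.

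Pmp22 encodes a membrane protein of compact peripheral myelin, an extra copy of which causes a hereditary neuropathy in humans, and is also made outside the nervous system. Pmp22 a (ILMN_1228535) gave log2 signals of 12.78, 12.64, 12.59 and 12.48 in control mice and 11.59, 11.41, 11.31 and 11.55 in KO mice. KO signal was 44.9% of control, a change of -1.16 ± 0.09 (adjusted p = 4.19e-06).

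The second probe, Pmp22 b (ILMN_2661299), moved less. Its log2 signals were 10.08, 10.02, 10.29 and 10.45 in control mice, against 9.66, 9.65, 9.74 and 9.67 in KO mice. The groups did not overlap, which held in this direction for 29.5% of tested probes. The gap between them was 0.27 and KO signal was 69.5% of control (change -0.52 ± 0.10, adjusted p = 0.00126). The changes of the Pmp22 probes differed by -0.63, for which a two-sided exact permutation test over 70 assignments of mice to groups gave p = 0.0286, the smallest it can give, and 0.0714 after Benjamini-Hochberg adjustment over the 5 probe pairs compared. This test was chosen after the values were seen. RefSeq places the gene on chromosome 11 (63128982 to 63159547) with several starts, including both shown above, and the sources used here do not say which of them either probe reads.

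Egr2 ran the other way. Its only probe (ILMN_2623983) gave log2 signals of 10.27, 10.26, 10.10 and 10.24 in control mice and 11.39, 11.69, 11.49 and 11.65 in KO mice. All 4 KO values were above all control values, which held for 28.5% of tested probes, and the gap was 1.12. The signal was 2.52-fold higher in KO skin (change 1.34 ± 0.09, adjusted p = 1.004e-06), and 4.52% of tested probes had a higher change. The signal of this regulator of myelin genes was higher while the myelin genes measured beside it were lower in the same mice. Which cells of whole skin gave the Egr2 signal was not tested. The gene is on chromosome 10 (67534469 to 67542188).

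Ngfr, the p75 receptor that binds all neurotrophins, had log2 signals of 9.43, 9.35, 9.41 and 9.52 in control mice, against 7.76, 7.90, 7.77 and 7.70 in KO mice at its only probe (ILMN_2851288). The mice of each genotype lay close together (SD 0.07 and 0.09), with a gap of 1.45 between the groups. KO signal was 31.9% of control, a change of -1.65 ± 0.07 (adjusted p = 7.53e-08), and 2.71% of tested probes had a lower change. Ngfr lies on chromosome 11 (95568818 to 95587698).

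Ncam1, a cell adhesion molecule of immature and nonmyelinating Schwann cells, of nerve and of muscle, has a brighter probe and one near background. Ncam1 a (ILMN_2722864) had log2 signals of 7.47, 7.13, 7.18 and 7.39 in control mice, against 5.60, 6.01, 6.42 and 5.50 in KO mice. KO mice were all lower but spread more widely (SD 0.42 against 0.16), and the change was -1.41 ± 0.19 (adjusted p = 0.000143), or -0.62 without background correction. Ncam1 b (ILMN_3102825) was near background, detected on 3 control and 2 KO arrays, with 5.49, 5.62, 5.22 and 5.13 in control mice, against 4.91, 5.51, 5.32 and 5.05 in KO mice. Here the groups overlapped, and the change of -0.17 did not pass the test (adjusted p = 0.376, 95% interval -0.51 to 0.18). A signal this close to background cannot show a fall as large as that of Ncam1 a, so nothing is read from the difference between these probes, the last of the 5 pairs. The 3 pairs of Mbp probes differed in change by -0.38, -0.17 and 0.21, with exact permutation p of 0.0857, 0.400 and 0.229. Ncam1 is on chromosome 9 (49502129 to 49799393).

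**Figure D2:**
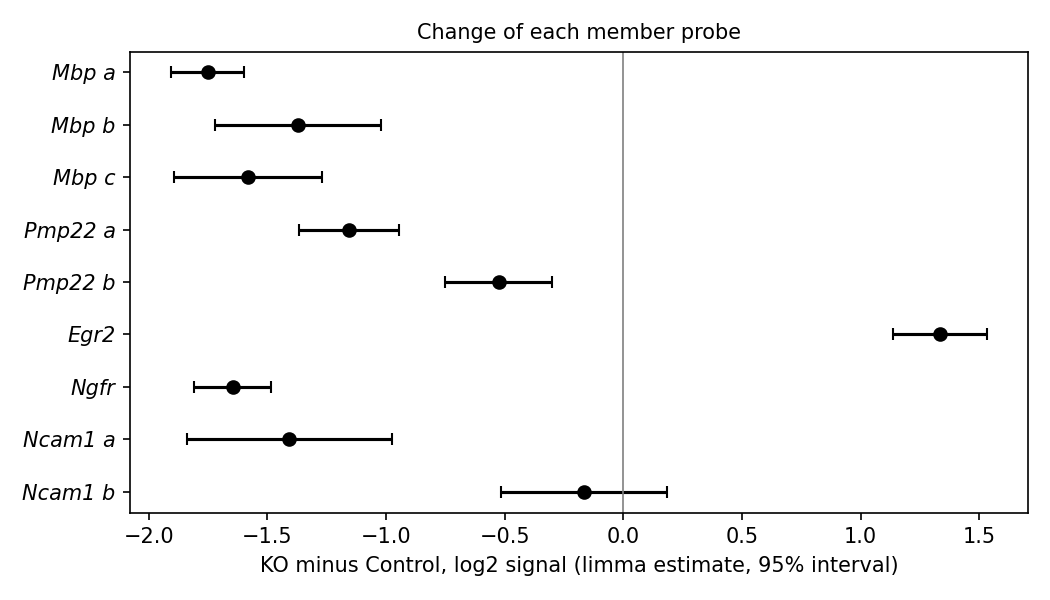
Change of each probe on the x axis, KO minus control in log2 signal, as the limma estimate with its 95% interval; the line marks no change. Mbp, Ngfr and Ncam1 a lie between -1.75 and -1.37, Pmp22 a and b at -1.16 and -0.52, Egr2 at 1.34, and the interval of Ncam1 b crosses 0.

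Around the genotype means, the brightest probes of the 5 genes had correlations of no common sign from mouse to mouse. The correlation of their deviations over the 8 mice ran from -0.59 (Pmp22 with Ncam1) to 0.47 (Ngfr with Ncam1), with Mbp and Ngfr at -0.39 and Mbp and Pmp22 at 0.27. The sign depended on the probe, since Ngfr had r of 0.89 with Mbp b. Probes of the same gene ran from -0.66 (Pmp22 a with b) to 0.45 (Ncam1 a with b). These are descriptions over 4 mice a genotype, and they cannot show whether the genes move together. Over all 8 mice, where the genotypes form separate clusters, very many genes follow any gene that differs between them: of the 14237 to 14239 tested probes that carry the symbol of another gene, 1997 had r above 0.95 with Mbp a, 1968 with Ngfr, 1606 with Egr2, 1549 with Pmp22 a and 357 with Ncam1 a. The most alike were Fxyd6, Defb8 and Pkia for Mbp, Gmfg, Lrrfip1 and Rhobtb3 for Pmp22, Acot1, Aatf and Psmc1 for Egr2, Neu2, Rpl3l and Adam23 for Ngfr, and Scrn1, Thnsl2 and Phka2 for Ncam1. The likeness was r of 0.986 to 0.9995 over 8 mice, and 12 of these 15 genes were lower in KO skin, as the genes they follow were. That direction was fixed by picking genes for the highest r over mice in separate genotype clusters.

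Other genes of myelin were lower as well. Of 19 further genes for proteins of the myelin sheath, 12 were tested, and 11 of them were lower and 1 higher, with a median change of -1.23 (34.4% of all tested genes were called lower and 29.4% higher). Cldn11, a tight junction protein of the claudin family, had log2 signals of 9.01, 8.80, 8.93 and 8.87 in control mice, against 6.999, 7.08, 6.90 and 7.16 in KO mice. No KO mouse came near the control range, and KO signal was 27.4% of control (change -1.87 ± 0.08, adjusted p = 7.82e-08). Which cells of skin gave the Cldn11 signal was not tested. Drp2, which ties periaxin to the outer membrane of the Schwann cell, changed by -1.51 ± 0.08 (adjusted p = 2.15e-07), with 8.21 to 8.37 in control mice, against 6.62 to 6.89 in KO mice. Mag, the adhesion protein of the myelin layer next to the axon, changed by -1.24 ± 0.11 (adjusted p = 8.71e-06), with 7.37 to 7.47 in control mice, against 5.98 to 6.48 in KO mice. The 1 gene of this list that rose was Cd9, a tetraspanin that many cell types carry, at 0.73 ± 0.07 (adjusted p = 2.09e-05; named after its value was seen). Pllp and Cldn19 were not above background on any KO array and were at least 1.61-fold and at least 1.64-fold lower in KO skin, where the bound sets the control mean against the detection floor of each KO array. Both passed the detection filter through control arrays alone, so their direction among the 11 lower genes was fixed by that filter. Pmp2, another of the 11 (named after its value was seen), was above background on 4 control arrays but on only 1 KO array. Its control arrays were enough to pass the filter. Cadm4 was not analysed here, Gjb1, Gjc3 and Mog were not detected on any array, and Mobp did not pass the detection filter.

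Enzymes that make myelin lipids were mixed, with 4 of 6 tested genes lower, 1 higher and 1 not called (median -0.48). Ugt8a, which makes galactosylceramide, the main glycolipid of myelin, had 7.08 to 7.33 in control mice, against 5.61 to 6.05 in KO mice (change -1.40 ± 0.11, adjusted p = 2.99e-06). Gal3st1, which turns that lipid into sulfatide, changed by -0.89 ± 0.09 (adjusted p = 1.84e-05). Scd2, a fatty acid desaturase, rose by 1.14 ± 0.09 (adjusted p = 4.67e-06), from 7.39 to 7.74 in control to 8.61 to 8.80 in KO mice. Elovl1, which lengthens fatty acids and is named here after its values were seen, was called lower at its brightest probe (-0.32) and higher at a dimmer one (0.90), so its direction depends on the probe.

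Among transcription factors of Schwann cells and signals between them and the axon, 2 of 9 tested genes were lower, 3 higher and 4 not called (median 0.02). Lgi4, a secreted protein of Schwann cells needed for myelination, had 8.38 to 8.87 in control mice, against 7.05 to 7.52 in KO mice (change -1.31 ± 0.14, adjusted p = 2.87e-05). Dhh, the hedgehog signal by which Schwann cells organise the nerve sheath, changed by -0.86 ± 0.08 (adjusted p = 1.04e-05). Nrg1, the growth factor that axons present to Schwann cells and that other cells make too, was not above background in control skin and was detected in all 4 KO mice (5.87 to 6.16), at least 1.83-fold higher. It passed the detection filter through KO arrays alone, so its direction among the 3 higher genes was fixed by that filter. Pou3f1, which acts before Egr2 in Schwann cells and is likewise expressed in keratinocytes, had a change of 0.03 (95% interval -0.18 to 0.23; named after its value was seen). Sox10, Erbb2, Erbb3 and Adgrg6 were not analysed here.

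The rise of Egr2 was not shared by all genes of its family, which encode zinc finger factors induced quickly by growth signals. Egr1 was at 13.11 to 13.24 in control mice, against 13.13 to 13.28 in KO mice, with a 95% interval of the change from -0.15 to 0.16. Egr3 was near background, detected on 1 control and 4 KO arrays, with 5.33, 4.80, 5.07 and 4.79 in control mice, against 5.38, 5.19, 5.79 and 6.14 in KO mice. These groups overlapped, and the change of 0.63 ± 0.21 passed the threshold (adjusted p = 0.0240) but did not when control mouse 2, control mouse 4, KO mouse 3 or KO mouse 4 was left out. Egr4 was not detected on any array. Differences between family members in their change were not tested.

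Genes of immature and nonmyelinating Schwann cells, the group to which Ngfr and Ncam1 belong, had 4 of 7 tested genes lower and 3 not called (median -0.26). Gap43, a growth protein of axons and of nonmyelinating Schwann cells, changed by -1.42 ± 0.15 (adjusted p = 2.11e-05), with 6.16 to 6.68 in control mice, while in KO skin it was above background on 1 array only (4.81 to 5.33). Scn7a, a sodium channel protein of glia, changed by -1.09 ± 0.19 (adjusted p = 0.000816). Cdh19, a cadherin of the Schwann cell lineage, changed by -0.58 ± 0.14 (adjusted p = 0.00410) and was detected on 4 control and 2 KO arrays. Gfap, S100b, Sox2, Fabp7, Foxd3, Matn2 and Chl1 were not detected on any array.

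Axon and sensory neuron genes were little measured, and 8 of 15 were not detected on any array, among them the neurofilament genes Nefl, Nefm and Nefh. The 4 tested were lower (median -0.74). Map1b, a microtubule protein of growing axons, had 7.83 to 8.42 in control mice, against 6.70 to 7.29 in KO mice at its brightest probe (change -1.22 ± 0.17, adjusted p = 0.000149), although a dimmer probe near background was called higher by 0.33. Stmn2 changed by -0.71 ± 0.15 (adjusted p = 0.00190) and Uchl1 by -0.76 ± 0.17 (adjusted p = 0.00283), the latter detected on 2 KO arrays.

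A list of 14 genes joined the neurotrophins and their receptors, to which Ngfr belongs, with the GDNF family of nerve growth factors and its receptors, which signal apart from Ngfr; 8 were tested, 4 lower, 2 higher and 2 not called (median -0.65). Gdnf, of the latter family, a survival factor for sensory neurons, had log2 signals of 8.87, 8.81, 9.11 and 8.97 in control mice, against 6.81, 6.88, 7.09 and 6.83 in KO mice. KO signal was 24.4% of control (change -2.04 ± 0.09, adjusted p = 1.05e-07). Bdnf, a ligand of Ngfr and Ntrk2, changed by -1.08 ± 0.07 (adjusted p = 1.07e-06), with 6.54 to 6.73 in control mice, against 5.48 to 5.61 in KO mice. Ret, the signalling receptor for Gdnf, rose by 0.86 ± 0.08 (adjusted p = 7.90e-06), with 6.90 to 6.99 in control mice, against 7.66 to 7.94 in KO mice. Ntf3 was not analysed here.

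**Figure D3:**
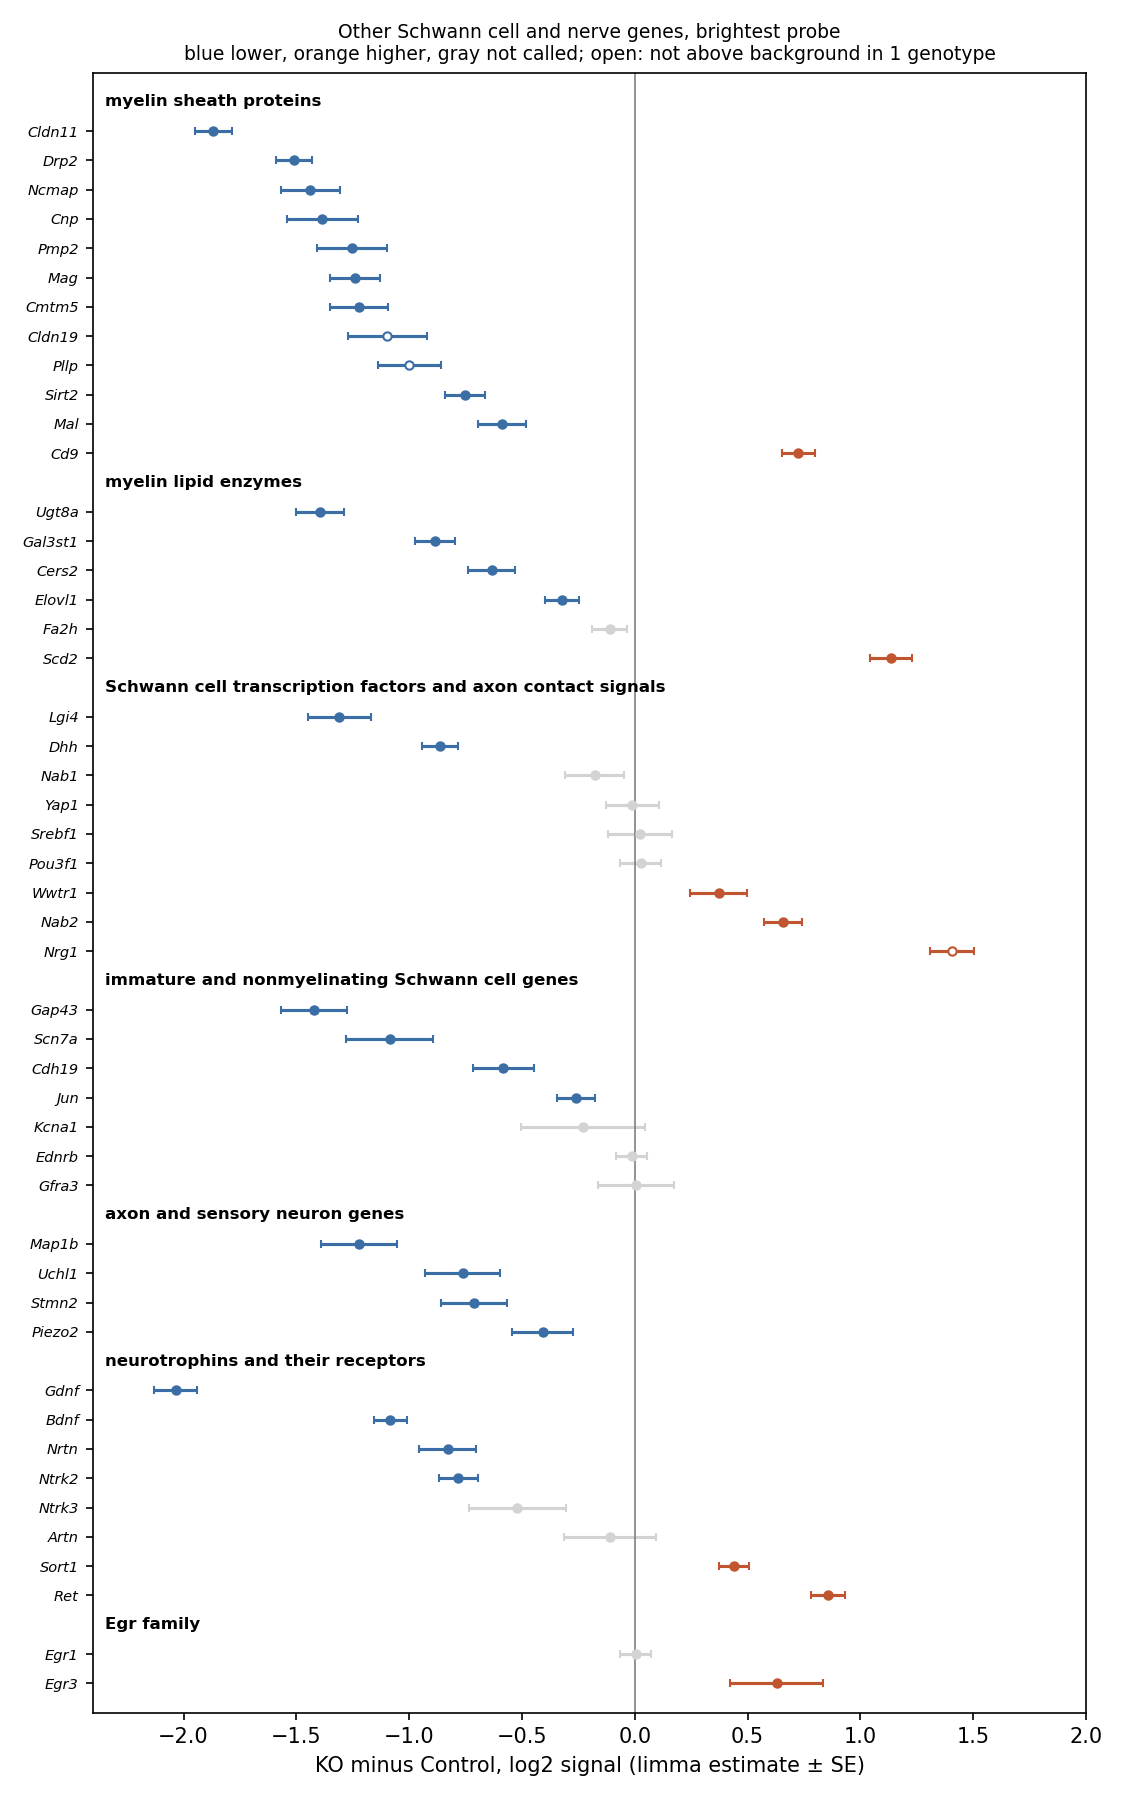
Change of each tested gene of the 7 Schwann cell and nerve lists at its brightest probe (KO minus control, log2 signal, limma estimate with SE), in blue where called lower, orange where called higher and gray where not called. Open circles mark genes not above background in 1 genotype, whose fitted value is no bound and whose direction the detection filter fixed. Of 48 genes, 29 were called lower and 8 higher, while 34.4% of all tested genes were called lower and 29.4% higher. All sheath proteins but Cd9 lie to the left of 0.

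Together the 7 lists held 48 tested genes, with a median of -0.61. Of these 48, 29 were lower, 8 higher and 11 not called (all tested genes: 34.4% called lower, 29.4% called higher). Nrg1, Pllp and Cldn19 are among those called, although each was detected in 1 genotype only and the detection filter fixed its direction. The median of -0.61 and the list medians above were the same with these genes set at their bound. The summed linear signal, which follows the brightest probes, ran differently from the median in some lists. For the 5 genes described here it was 11419 to 12657 in control mice and lower, 6781 to 7531, in KO mice. For the sheath proteins it was 11570 to 12674 in control mice and higher, 14874 to 17066, in KO mice, but 2846 to 3134 against 1292 to 1397 without Cd9, left out after its value was seen. The sum was also higher in KO mice for the neurotrophin and GDNF family list (6335 to 6776 against 7001 to 7791). There it follows Sort1, the brightest gene of that list, which was called higher (0.44 ± 0.07, named after its values were seen). Of the 8 tested genes of that list, 4 were lower. The sum was lower in KO mice for the lipid enzymes (13186 to 14343 against 10766 to 11926) and the axon list (461 to 592 against 263 to 314). The ranges overlapped for the transcription factor list (4609 to 5521 against 4710 to 5157), the immature list (5852 to 6082 against 5208 to 5859), the Egr family (8875 to 9687 against 9004 to 10018) and all 7 lists together (51840 to 54407 against 53707 to 56739). The members of the lists were chosen for what they are known to do, and several are expressed by other cells of skin.

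Markers of other cell types also moved with the genotype, in a comparison where 34.4% of all tested genes were called lower and 29.4% higher. Skeletal muscle markers were lower for 15 of 15 tested genes (median -1.65), with a summed linear signal of 368235 to 370929 in control mice, against 174999 to 180759 in KO mice; Actn3, Tcap and Eno3 changed by -2.18, -2.24 and -1.87. Endothelial markers were lower for 10 of 11 (median -1.17; sum 11694 to 12888 against 5480 to 5783), with Robo4 at -1.42, Esam at -1.17 and Vwf at -1.31. Fibroblast and matrix genes were lower for 12 of 12 (median -0.99; sum 117801 to 125075 against 69838 to 77507), with Pdgfra at -1.10, Lox at -1.07 and Thy1 at -0.91.

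Hair shaft, inner root sheath and melanocyte genes went the opposite way, and dermal papilla genes were mixed. Hair shaft and inner root sheath genes were higher for 17 of 17 (median 7.73, or 7.42 with 4 genes at their bound; sum 5026 to 7158 against 221969 to 227174), with Krt35 at least 171-fold and Krt72 at least 163-fold higher. Msx2, the other of the 3 with the smallest adjusted p, was above background on 1 control and 4 KO arrays (measured change 4.40). Melanocyte genes were higher for 8 of 9 (median 2.93; sum 852 to 982 against 10643 to 11406), with Dct at 3.79, Tyrp1 at 4.43 and Oca2 at least 8.56-fold higher. Dermal papilla and sheath genes had 3 higher and 3 lower of 8 (median -0.12; sum 2313 to 2396 against 1926 to 2059), with Corin at 3.63, Crabp1 at -1.39 and Fgf7 at -0.81. Most of the genes called higher in these lists were not above background on every control array and needed KO arrays to pass the detection filter, and with detection asked on all 8 arrays 4 hair shaft and sheath genes, 3 melanocyte genes and 0 dermal papilla genes were called higher. Adipocyte genes had 1 higher and 4 lower of 6 (median -0.32; sum 23593 to 25059 against 18561 to 19266), with Plin4 at -0.89, Adipoq at -0.42 and Lep at 0.65. The part of these other cell types in the changes of Mbp, Pmp22, Egr2, Ngfr and Ncam1 was not tested.

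**Figure D4:**
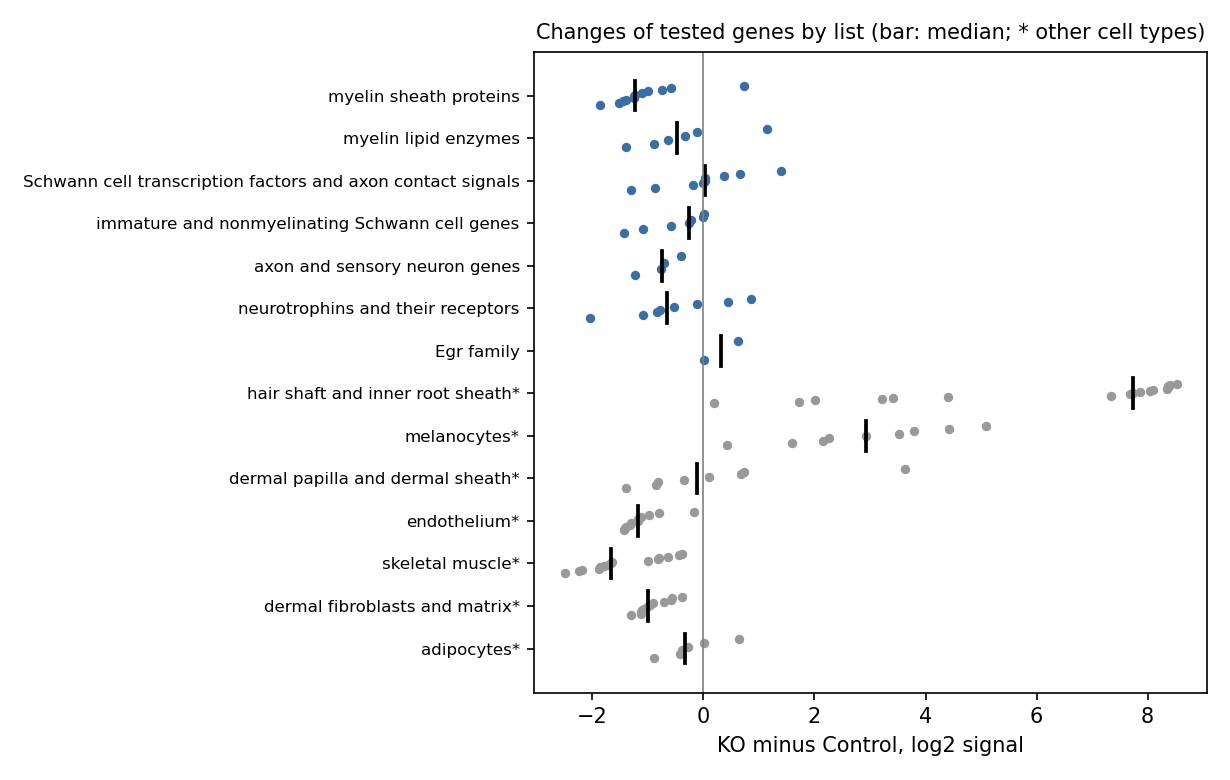
Change of each tested gene (point, KO minus control, log2 signal at the brightest probe) by gene list, with the median of each list as a black bar; blue points are Schwann cell and nerve lists, gray points and an asterisk are markers of other cell types. The sheath proteins (median -1.23) lie beside the endothelium (-1.17) and fibroblast (-0.99) lists, muscle is lower (-1.65), and hair shaft and melanocyte genes are far higher.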

How the data were processed

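Signals of 8 mouse back skin samples, 4 control and 4 KO, were analysed. The authors deposited the mean bead intensity of each probe on a linear scale, without background subtraction or scaling, and, per the file headers, a detection p-value per probe and array. The submitters' processing notes name GenomeStudio 2011.1. A second deposited set of intensities, background-subtracted and quantile matched, served as an alternative, raised to a floor of 16 before log2.

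Raw intensities were background corrected with an offset of 16, brought to common quantiles and log2 transformed by neqc (limma 3.58.1, R 4.3.3); the offset pulls changes of dim probes toward 0. Probes with detection p below 0.05 on at least 4 of 8 arrays were tested with lmFit and eBayes of limma, genotype as the only term, with Benjamini-Hochberg adjustment over 15120 probes and a threshold of 0.05. The number of arrays limits precision. Changes are KO minus control ± SE, and a gene is read at its brightest tested probe. The fit was checked on simulated arrays in which far fewer probes changed than the 62.7% called here. That check therefore does not cover changes as widespread as these.

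Probes were named through the platform annotation and RefSeq (GRCm38.p6); 23978 had 1 symbol, 1719 none, and 23962 matched. Probe positions were not analysed. The genes described and the lists were chosen with earlier results of these data known. Named were all of the 6 genes at every probe, 3 tested genes per list (those of lowest adjusted p), the whole Egr family, Med1, and the 3 most alike genes by Pearson correlation; exceptions are marked. Motifs were chosen after the sequences were seen. Alternatives were other background, scaling and filter settings, a variance trend, a t-test with a p threshold of 0.005, a replicate block, and mice left out. The paper set that p threshold for its pathway software and names no test for the arrays. No batch is given in the labels or file headers. Some genes of the lists are not reported here.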

Additional observations from a re-analysis of the deposited data

Results flagged for a closer look

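A pair of values stood apart within their group. KO mouse 1 had a log2 signal of 10.19 at the brightest Mbp probe (ILMN_2737200), while the other KO mice lay at 10.05 to 10.06, so that its gap was 0.952 of the range of the group. The change was -1.79 without that mouse. Control mouse 3 had a log2 signal of 10.10 at the Egr2 probe (ILMN_2623983), while the other control mice lay at 10.24 to 10.27 (gap 0.839 of the range), and the change was 1.29 without it. Of 18 groups of 4 mice, 2 passed Dixon's critical value at the 95% level, which chance alone passes in about 1 of 20 groups, and both values lay on their own group's side of the gap between genotypes.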

How the results depend on the processing

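The 9 probes of Mbp, Pmp22, Egr2, Ngfr and Ncam1 kept their direction and their side of the threshold in all 161 comparisons with an alternative (18 alternatives a probe, 17 for the dim Ncam1 probe, which is not tested when detection on all 8 arrays is asked). Over these, Mbp a ranged from -1.79 to -1.65, Mbp b from -1.50 to -1.06, Mbp c from -1.83 to -0.80, Pmp22 a from -1.20 to -1.09, Pmp22 b from -0.59 to -0.44, Egr2 from 1.25 to 1.39, Ngfr from -1.72 to -1.25, Ncam1 a from -1.73 to -0.62 and Ncam1 b from -0.27 to -0.05. The weakest changes of the dim probes came without background correction, where the background signal stays in the ratio. In the 7 Schwann cell and nerve lists together, 6 to 8 genes were higher and 22 to 30 lower, the fewest lower genes with detection asked on all 8 arrays, where fewer genes are tested. That filter and the t-test at its own threshold also left 2 lower genes each in the immature and nonmyelinating list, and 2 and 1 in the axon list. Detection on all 8 arrays cut the higher genes from 17 to 4 for hair shaft and inner root sheath, from 8 to 3 for melanocytes and from 3 to 0 for dermal papilla. The t-test at its own threshold left 1 in the last. A lower Med1 signal at the dimmer called probe (-0.69) did not pass the threshold without control mice 1 and 3 (adjusted p = 0.0503; 0.00214 to 0.0503 over its alternatives). Egr3 was also not called by the t-test or with detection on all 8 arrays. Of 570 gene list counts under an alternative, 15 moved by more than 1.5 times. Mice of the same number did not deviate together (r of -0.11, 0.01, 0.06 and -0.09), so the numbers gave no sign of pairing. So few values cannot exclude it, and the paper took Cre negative littermates as controls. With the replicate number as a block, 4466 probes were higher and 4726 lower, against 4636 and 4837 without it, and the 9 probes still gave 1 higher and 7 lower. Mice were left out after normalization, with the tested probes kept. Signals close to the detection floor, as for Ncam1 b, Egr3 and Gap43, limit what can be seen, and 1 probe stands for Egr2 and for Ngfr.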
